A study of Mus musculus with 6 samples.

Results

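Receptor-type protein tyrosine phosphatases are single-pass membrane proteins that remove phosphate from tyrosines inside the cell under the control of an adhesive or ligand-binding part outside it. Measured here were 10 of their genes, Ptprd, Ptprs, Ptprf, Ptprq, Ptprk, Ptprm, Ptpru, Ptprg, Ptprz1 and Ptprj, taken by symbol from the 24495 rows of a gene count table. All 10 had a row, and all 10 passed the filter on low counts that left 14855 genes for testing. Ptprd and Ptprq were chosen by their counts, having been called higher in an earlier comparison of these same libraries within same-numbered pairs, and the rest of the list was drawn up around them. The comparison of treated with control cells therefore describes the 10 genes and tests nothing about them.

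The cells were spermatogonial stem cells in culture, the cells that renew the male germline, derived from DBA2 mice at postnatal days 5 to 8. EPZ5676 (pinometostat), an inhibitor of the histone methyltransferase DOT1L, was given at 2 uM for 2 weeks to 3 cultures, and the control was 0.2% ethanol for the same time in the other 3. No label names a transgene or a feeder layer, and the replicates are described as biological triplicates without saying whether they came from separate animals or derivations, so p-values measure the spread between these libraries. RNA libraries were made from poly(A) transcripts with a stranded kit. Library totals ran from 19866337 to 54645903 gene counts for EPZ5676 (highest in replicate 2) and from 17784332 to 21046473 for ethanol. CPM are counts per 1 M counts of the tested genes, after TMM scaling between libraries. One count was worth 0.0181 to 0.0511 CPM in EPZ5676 libraries and 0.0475 to 0.0560 CPM in ethanol libraries.

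The replicate 2 libraries of both groups had the highest summed level of fibroblast markers. Summed over 25 marker genes, of which none was at 0 in any library, these reached 1741, 2303 and 1923 CPM in EPZ5676 replicates 1, 2 and 3 and 1687, 3170 and 1891 CPM in ethanol replicates 1, 2 and 3. The median marker gave another order, at 28.3, 28.0 and 39.4 CPM in EPZ5676 replicates 1, 2 and 3 and 24.3, 43.1 and 32.0 CPM in ethanol replicates 1, 2 and 3. Undifferentiated spermatogonia markers summed to 4057 to 4186 CPM in EPZ5676 libraries and 3876 to 4311 CPM in ethanol libraries. None of these 21 markers of the labelled cell type was at 0 in any library. Dazl alone gave 1671 to 1819 CPM, so the sum says little about scarcer markers. Their median was 53.2, 50.2 and 41.7 CPM in EPZ5676 replicates 1, 2 and 3 and 56.4, 54.7 and 56.4 CPM in ethanol replicates 1, 2 and 3. Single markers went different ways. In replicate 2 with EPZ5676 and with ethanol, Nanos2 was lowest of its group (5.91 and 3.19 CPM) and Bcl6b highest (118 and 114 CPM). Differentiating spermatogonia markers summed to 1299 to 1473 CPM in EPZ5676 libraries and 1297 to 1592 CPM in ethanol libraries. Sertoli (37.8 to 50.8 CPM), Leydig (5.70 to 10.6 CPM), macrophage (15.0 to 21.1 CPM) and peritubular and smooth muscle markers (58.9 to 147 CPM) summed to far less over the 6 libraries. Endothelial markers summed to 286 to 327 CPM, most of it from Erg. In bulk RNA, fewer cells of a type and less RNA per cell cannot be told apart.

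The family is divided by its extracellular parts. Ptprd, Ptprs and Ptprf are the LAR-type receptors, with immunoglobulin and fibronectin type III domains, known as synapse organisers and as receptors for heparan sulphate proteoglycans. Ptprk, Ptprm and Ptpru carry a MAM domain, and Ptprk and Ptprm bind copies of themselves on the neighbouring cell and act at cadherin junctions. Ptprg and Ptprz1 carry a carbonic anhydrase-like domain and bind contactins. Ptprj and Ptprq have long rows of fibronectin type III domains, and Ptprj acts on growth factor receptor kinases, while Ptprq is needed in the stereocilia of inner ear hair cells and acts on phosphoinositides.

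The catalytic loop that all of these proteins share, the PTP signature motif, was located in the longest open reading frame of each gene in GENCODE release M21 on GRCm38. It is shown for the genes whose levels differed most and for the LAR-type relatives of Ptprd, since it shows how alike the family is at its enzyme centre. The capitals mark the codon of the cysteine in each match to the motif, and enzyme activity was not measured.
Ptprd, first domain: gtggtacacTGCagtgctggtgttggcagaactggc
Ptprd, second domain: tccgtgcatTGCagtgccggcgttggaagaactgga
Ptprs, first domain: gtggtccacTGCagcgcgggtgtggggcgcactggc
Ptprf, first domain: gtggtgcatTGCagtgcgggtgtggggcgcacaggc
Ptprq, only match: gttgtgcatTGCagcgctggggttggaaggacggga
Ptprk, first domain: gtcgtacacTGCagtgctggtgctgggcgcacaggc
Ptprz1, only match: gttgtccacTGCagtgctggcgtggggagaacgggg
The motif was found 2 times in Ptprd, Ptprs, Ptprf, Ptprk, Ptprm and Ptpru, and 1 time in Ptprq, Ptprg, Ptprz1 and Ptprj. In Ptprq it lay at 95.7% of the coding length of 6900 bases, near the end of the protein. The 2 matches in Ptprd lay at 81.3% and 96.5% of 5757 bases.

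Apart from such short stretches the coding sequences are distinct. The longest run of identical bases between any 2 of the 10 genes was 27 bases, shared by Ptprs and Ptprf, and the longest between Ptprd and Ptprf was 26 bases, gagaaatgtcaccagtactggccagc. No run of 50 bases was shared by any pair of the 10. The members lie on chromosomes 2, 4, 6, 10, 14 and 17, with Ptprd, Ptprf and Ptpru on chromosome 4, Ptprq and Ptprk on chromosome 10, and Ptprs and Ptprm on chromosome 17. Where RefSeq places other genes across a member, the ones with a row in the count table, Mir6977, Mir7226 and Mir5709, had 0 counts.

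The first question was how abundant the RNA of these genes is in the cultures. Fibroblast markers were present too, and which cells a gene's RNA came from was not measured. Ptprf and Ptprs carried most of the RNA of the 10 genes. Ptprf made up 58.5% to 62.2% of the members' summed counts in EPZ5676 libraries and 58.0% to 61.2% in ethanol libraries, and Ptprs 22.3% to 27.8% in EPZ5676 libraries and 24.4% to 27.7% in ethanol libraries. Ptprd supplied 1.87% to 2.13% in EPZ5676 libraries and 1.26% to 1.50% in ethanol libraries, and Ptprq 0.916% to 0.959% in EPZ5676 libraries and 0.503% to 0.627% in ethanol libraries. Ptprd and Ptprq, the genes singled out by treatment, were thus minor parts of the RNA of the 10 genes.

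Levels can be ordered between genes only per length, here CPM per kilobase of the longest protein-coding transcript. In ethanol libraries the order was Ptprf at 66.9 ± 1.47, Ptprs at 32.8 ± 2.83, Ptprg at 5.05 ± 0.557, Ptprj at 3.32 ± 0.749, Ptprk at 2.41 ± 0.612, Ptpru at 1.89 ± 0.123, Ptprd at 1.19 ± 0.146, Ptprm at 0.941 ± 0.112, Ptprq at 0.651 ± 0.0797 and Ptprz1 at 0.158 ± 0.0223 CPM per kb (SD, n = 3). In that order the ranges of Ptprj and Ptprk, of Ptprk and Ptpru, and of Ptprd and Ptprm overlapped between neighbours, and the other neighbours did not. In EPZ5676 libraries Ptprk, at 3.48 ± 0.392 CPM per kb, stood above Ptprj at 2.83 ± 0.236, and Ptprq, at 1.15 ± 0.120, stood above Ptprm at 0.971 ± 0.168 (SD, n = 3). Those 2 pairs of ranges overlapped. Ptprd, at 1.80 ± 0.104 CPM per kb with EPZ5676, came close to Ptpru at 1.98 ± 0.143.

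**Figure D1:**
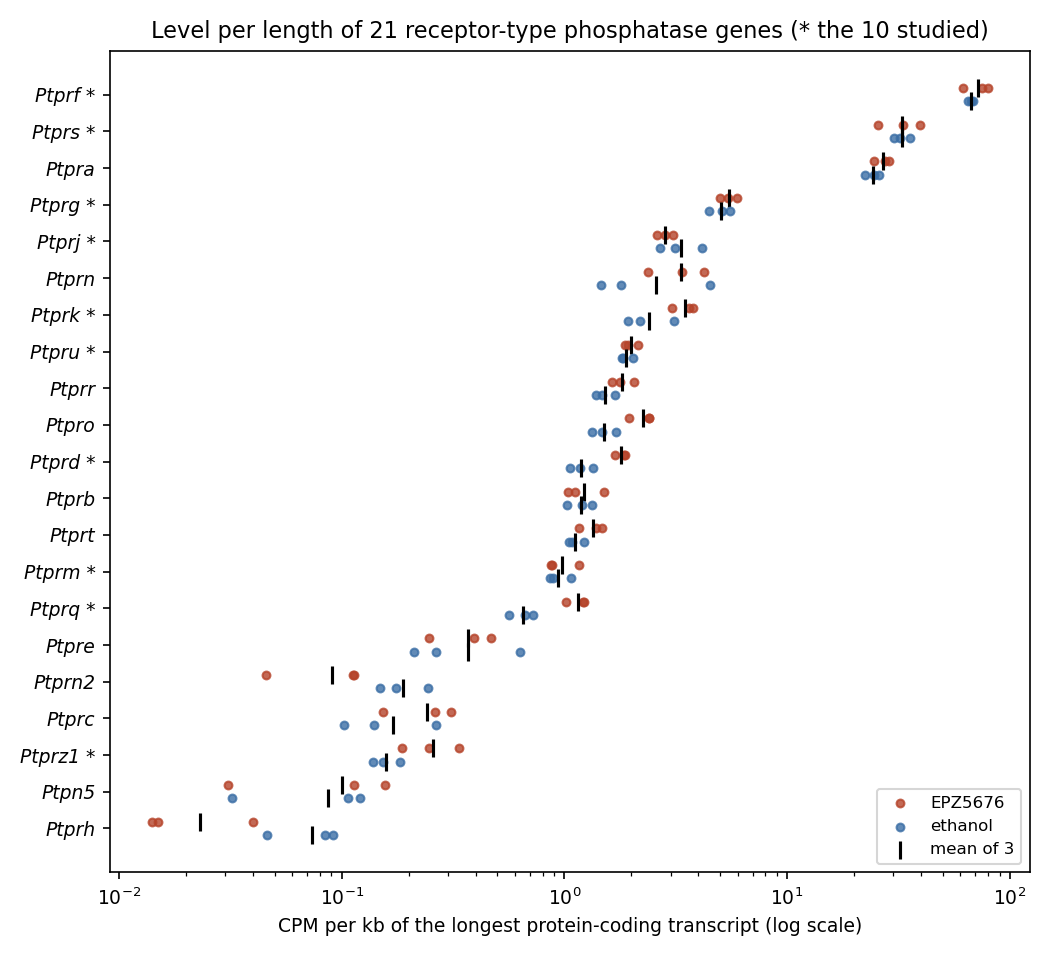
Level per length (CPM per kb of the longest protein-coding transcript, log axis) of 21 receptor-type phosphatase genes, with 1 point per library, EPZ5676 above ethanol in each row and a black bar at the mean of 3 libraries; an asterisk marks the 10 genes described. Ptprf and Ptprs lie highest, Ptprz1 lowest of the 10, and the EPZ5676 points of Ptprd and Ptprq lie to the right of their ethanol points.

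The second comparison was EPZ5676 against ethanol. Ptprd, Ptprq and Ptprz1 were higher in every EPZ5676 library than in any ethanol library, and the groups overlapped for the remaining members. Of those, Ptprk, Ptprg and Ptpru were higher within each replicate pair. Groups did not overlap, with EPZ5676 above, for 3 of the 10 genes, and for 7.22% of all genes tested; EPZ5676 lay below for 0 of the 10 and for 7.64% of all genes. All 3 replicate pairs were higher with EPZ5676 for 6 of the 10 and for 19.5% of all genes tested, and all 3 were lower for 0 of the 10 and 22.3% of all genes. The median log2 fold change was 0.11 over the 10 genes and -0.00663 over all genes tested. Since the list was built around this contrast, nothing is read from these counts.

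The fit without pairing called 0 of the 10 genes, as it called 0% of all 14855 genes at an adjusted p under 0.05 (edgeR quasi-likelihood F-test, 2-sided, adjusted by the Benjamini-Hochberg method). At an unadjusted p under 0.05 it gave 4 of the 10 genes, all higher. Over all genes this was 3.84% higher and 3.57% lower (1101 genes). DESeq2 without pairing called 2 of the 10, and 50 of all 14855 genes. With the replicate number as a block, edgeR's test called Ptprd and Ptprq, 2 of 10, higher, against 0.323% of all genes called higher; 0 of 10 were called lower, against 0.330% of all genes. Those calls are what chose the genes and are given as a description. Ptprd stood just inside the threshold, where edgeR's blocked fit put its adjusted p at 0.0499, and Ptprk just outside it, at 0.0711. Without pair 1 the blocked fit called 0 of the 10 and 0 of 15002 genes tested. Without pair 2 it called 3 of the 10 and 795 of 14822 genes. Without pair 3 it called 4 of the 10 and 761 of 14912 genes. Calls thus rose over all genes too, and the cause was not tested.

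Ptprq was the member with the largest difference. It was at 9.10, 8.98 and 7.50 CPM in EPZ5676 replicates 1, 2 and 3, against 5.34, 4.93 and 4.18 CPM in ethanol replicates 1, 2 and 3. Every EPZ5676 library lay above every ethanol library, and replicate 3 was lowest in each group. These levels rest on 178, 495 and 154 counts with EPZ5676 and 105, 88 and 88 counts with ethanol. Its log2 fold change, 0.83 in either fit, had an SE of 0.17 unblocked and 0.13 blocked, a 1.77-fold difference, and the log2 differences within pairs 1, 2 and 3 were 0.76, 0.86 and 0.83.

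Ptprd was at 18.5, 18.4 and 16.7 CPM in EPZ5676 replicates 1, 2 and 3, against 11.6, 13.3 and 10.4 CPM in ethanol replicates 1, 2 and 3. The groups were clear of each other. The log2 fold change of 0.60 had an SE of 0.13 unblocked and 0.10 blocked, a 1.51-fold difference, and the smallest difference within a pair, 0.46, was that of pair 2. As a share of the LAR-type counts, Ptprd took 2.16%, 2.12% and 2.51% in EPZ5676 replicates 1, 2 and 3, against 1.57%, 1.72% and 1.43% in ethanol replicates 1, 2 and 3. The exact (Clopper-Pearson) 95% intervals of EPZ5676 replicates 2 and 3, 2.00% to 2.26% and 2.25% to 2.78%, lay above that of the highest ethanol share, 1.51% to 1.95% in replicate 2. The interval of EPZ5676 replicate 1, 1.946% to 2.392%, overlapped that ethanol interval at its edge (1.952%), and such intervals cover counting error only. Since Ptprd was chosen by this contrast, the intervals describe its share and test nothing. The share also moves with its denominator. LAR-type genes summed to 857, 864 and 665 CPM in EPZ5676 replicates 1, 2 and 3. In ethanol replicates 1, 2 and 3 that sum was 740, 774 and 730 CPM.

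Its LAR-type relatives, at far higher levels, did not separate the groups. Ptprf was at 611, 573 and 473 CPM in EPZ5676 replicates 1, 2 and 3, against 521, 515 and 499 CPM in ethanol replicates 1, 2 and 3, and pair 3 ran opposite to the other pairs. Ptprs was at 227, 272 and 175 CPM in EPZ5676 libraries, against 207, 246 and 221 CPM in ethanol libraries in the same order, again with pair 3 opposite. EPZ5676 replicate 3 was the lowest of the 6 libraries for both genes. The unblocked log2 fold change was 0.11 ± 0.10 (SE) for Ptprf and 0.00337 ± 0.15 for Ptprs, whose blocked value was -0.0161 ± 0.09. The 3 LAR-type genes summed to 795 ± 113 CPM under EPZ5676 against 748 ± 23.1 CPM under ethanol (SD, n = 3).

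**Figure D2:**
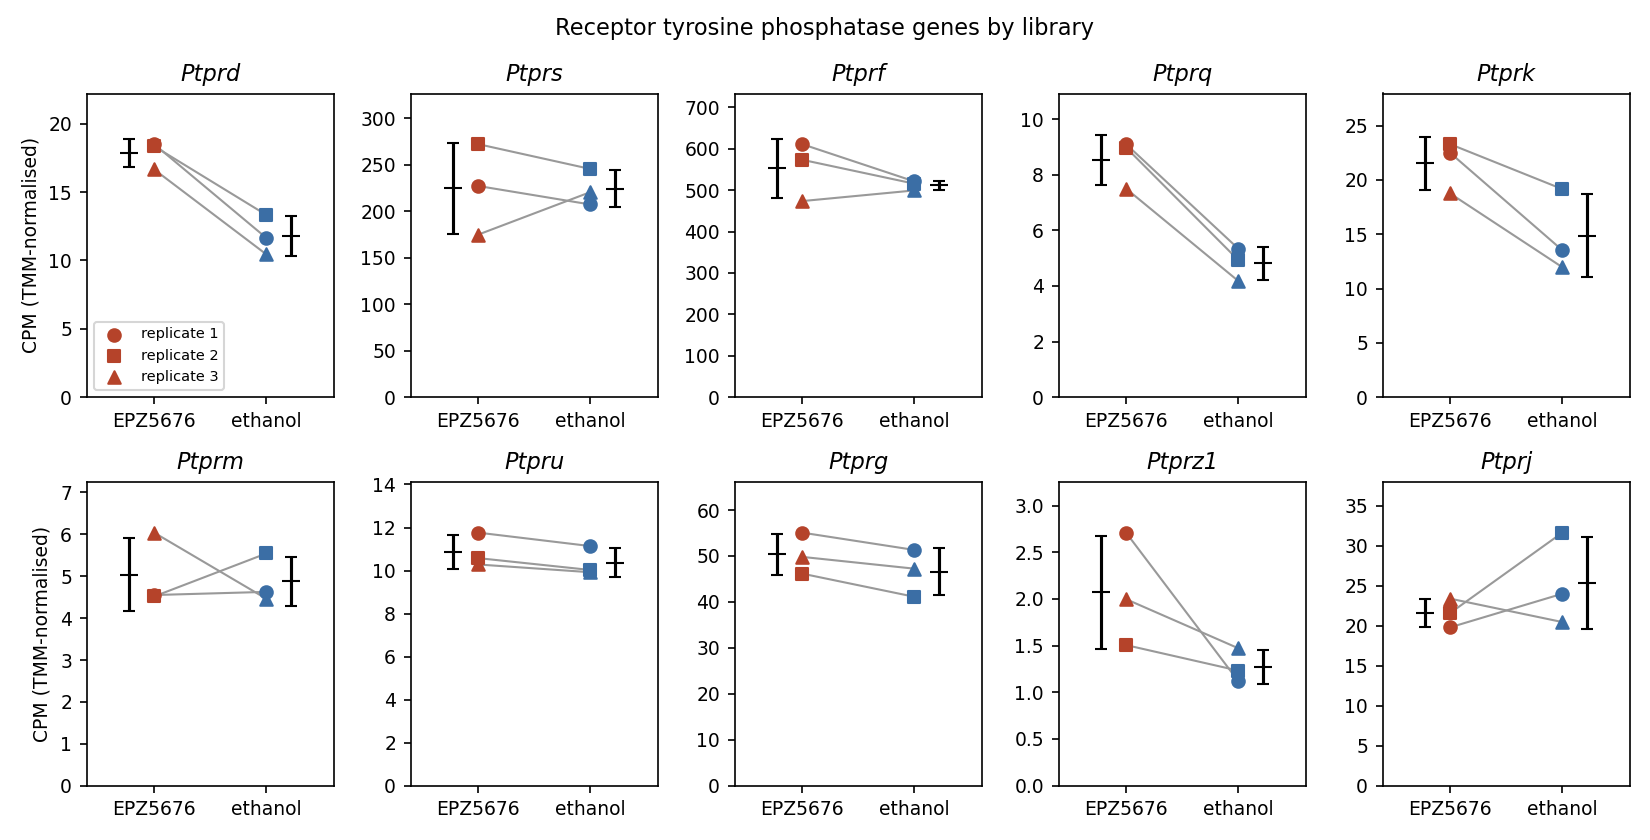
TMM-normalised CPM of the 10 genes in the 6 libraries, with EPZ5676 left of ethanol, a marker shape for each replicate number, grey lines joining same-numbered libraries, and black bars for the mean ± SD of 3 libraries. The grey lines of Ptprd, Ptprq and Ptprz1 all slope down towards ethanol and their groups do not overlap, whereas Ptprs, Ptprf, Ptprm and Ptprj each have lines sloping both ways.

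Among the MAM-domain receptors, Ptprk and Ptpru were higher with EPZ5676 within each pair, Ptpru by a log2 difference of at most 0.078. Ptprk was at 22.5, 23.3 and 18.8 CPM in EPZ5676 replicates 1, 2 and 3, against 13.5, 19.2 and 11.96 CPM in ethanol replicates 1, 2 and 3. The groups overlapped only through ethanol replicate 2, which lay above EPZ5676 replicate 3. The log2 fold change was 0.54 ± 0.19 (SE) unblocked and 0.55 ± 0.11 blocked, and its log2 difference was 0.28 in pair 2 against 0.73 and 0.65 in pairs 1 and 3. The sum and the median of fibroblast markers were highest in the same ethanol replicate 2, and their part in the value of Ptprk there was not tested. Over all libraries, Pearson's r of Ptprk with the mean log2 CPM of the tested fibroblast markers was 0.214. That r was 0.798 for Ptprj and -0.959 for Ptprg, members taken up below. Without both replicate 2 libraries the log2 fold change of Ptprk was 0.70.

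Ptpru and Ptprm hardly differed. Ptpru was at 11.8, 10.6 and 10.3 CPM in EPZ5676 libraries, against 11.1, 10.03 and 9.92 CPM in ethanol libraries, and its log2 fold change was 0.07 ± 0.13 (SE) without the block. Ptprm was at 4.55, 4.52 and 6.04 CPM in EPZ5676 libraries, against 4.63, 5.54 and 4.46 CPM in ethanol libraries, with a log2 fold change of 0.04 ± 0.19. The pairs of Ptprm disagreed in direction, since pair 2 differed by -0.29 and pair 3 by 0.43 on the log2 scale. Ptprk made up 58.0%, 60.7% and 53.5% of the counts of these 3 genes in EPZ5676 replicates 1, 2 and 3, against 46.2%, 55.2% and 45.4% in ethanol replicates 1, 2 and 3.

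The carbonic anhydrase-like receptors come next. Ptprg was at 55.1, 46.2 and 49.8 CPM in EPZ5676 replicates 1, 2 and 3, against 51.3, 41.1 and 47.2 CPM in ethanol replicates 1, 2 and 3. It was lowest in the replicate 2 library of each group, where the sum of fibroblast markers was highest but, with EPZ5676, their median was not, and its log2 fold change was 0.11 ± 0.11 (SE) without the block. Ptprz1, known from glia and neural progenitors, was the scarcest member, with 53, 83 and 41 counts in EPZ5676 libraries and 22, 22 and 31 counts in ethanol libraries. This came to 2.71, 1.51 and 2.00 CPM in EPZ5676 replicates 1, 2 and 3, against 1.12, 1.23 and 1.47 CPM in ethanol replicates 1, 2 and 3. The groups did not overlap, but the lowest EPZ5676 library and the highest ethanol library differed by less than the SD of either group. Without the block it had a log2 fold change of 0.67 ± 0.29 (SE), and the pairs ran from 0.27 to 1.22.

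Ptprj was the 1 member with a negative log2 fold change, -0.23 ± 0.17 (SE) unblocked and -0.22 ± 0.14 blocked. It was at 19.8, 21.6 and 23.4 CPM in EPZ5676 replicates 1, 2 and 3, against 24.0, 31.6 and 20.5 CPM in ethanol replicates 1, 2 and 3. Ethanol replicate 2, with the highest summed fibroblast markers, was the highest, and pair 3 ran opposite to pairs 1 and 2. Without both replicate 2 libraries the log2 fold change of Ptprj was -0.04. The part of the fibroblast signal in this gene was not tested.

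**Figure D3:**
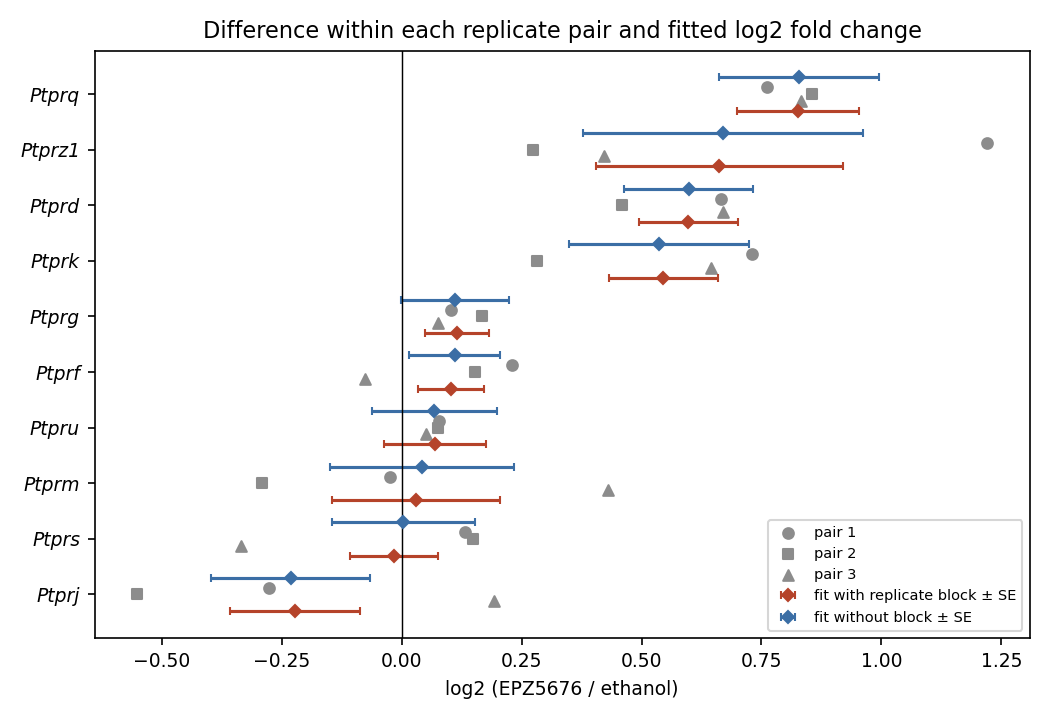
Log2 ratio of EPZ5676 to ethanol for the 10 genes: grey marks are the differences within replicate pairs 1, 2 and 3 (log2 CPM with a prior count of 2), and diamonds are edgeR's fitted log2 fold changes ± SE, with the fit without the block above and the fit with it below. Ptprq, Ptprd, Ptprk, Ptprz1, Ptprg and Ptpru have every pair right of 0, Ptpru by at most 0.078, and 1 pair of Ptprz1 is at 1.22. Ptprs, Ptprf, Ptprm and Ptprj have pairs on either side.

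Of the 12 other receptor-type phosphatase genes, 9 were tested and 0 passed in edgeR's quasi-likelihood test in either fit. Their median log2 fold change was 0.25, and 8 were positive, as were 7172 of all 14855 genes tested. Ptpro, a receptor of kidney podocytes and neurons with a fibronectin type III exterior like Ptprq, had a difference close to that of Ptprd. It was at 12.3, 12.3 and 9.94 CPM in EPZ5676 replicates 1, 2 and 3, against 7.53, 6.78 and 8.69 CPM in ethanol replicates 1, 2 and 3. Its groups did not overlap, and its log2 fold change of 0.59 ± 0.16 (SE) gave adjusted p of 0.596 (unblocked) and 0.107 (blocked) by edgeR. Ptprt, the fourth MAM-domain receptor, averaged 16.2 ± 1.95 CPM under EPZ5676 against 13.5 ± 1.14 CPM under ethanol (SD, n = 3), a log2 fold change of 0.26 ± 0.14. Ptpra, an activator of Src-family kinases, averaged 143 ± 11.4 and Ptprr, which binds MAP kinases, 6.59 ± 0.762 CPM with EPZ5676, against 129 ± 9.36 and 5.50 ± 0.544 CPM with ethanol.

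Ptprn, a secretory granule protein, followed the replicate number more than the treatment. It was at 12.02, 15.1 and 8.48 CPM in EPZ5676 replicates 1, 2 and 3, against 5.19, 16.1 and 6.36 CPM in ethanol replicates 1, 2 and 3, with the replicate 2 libraries highest in each group. Ptprb, Ptprc, Ptpre and Ptprv had log2 fold changes of 0.05, 0.57, 0.03 and -0.23 with SEs of 0.18, 0.41, 0.43 and 0.26. Ptprh, Ptprn2 and Ptpn5 had too few counts to test, at most 27 in any library.

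Of 14 tested non-receptor phosphatases, which act in the cytoplasm or nucleus, 0 passed in either fit of edgeR's test, and their median was -0.04 in the unblocked fit and -0.08 in the blocked one (log2 fold change). The smallest p in the blocked fit belonged to Ptpn14, an inhibitor of YAP signalling, at -0.36 ± 0.07 (SE, adjusted p of 0.0545), followed by Ptpn13 at -0.29 ± 0.06 and Ptpn23 at 0.26 ± 0.05.

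Partners of the family were then examined by role, and in the unblocked edgeR fit 0 partners passed. List medians are log2 fold changes of that fit, beside -0.00663 over all genes. Calls with the block stand beside 0.323% of all genes called higher and 0.330% called lower. Of 17 tested extracellular partners of the LAR-type receptors, 0 were called higher and 1 lower with the block. That gene, Nid1, which encodes the basement membrane protein nidogen, fell to 95.9 ± 4.31 CPM under EPZ5676, against 126.5 ± 17.3 CPM under ethanol (SD, n = 3), at an adjusted p of 0.0485. The glypican gene Gpc2 was at 38.6 ± 4.52 CPM under EPZ5676 against 29.2 ± 1.40 CPM under ethanol and did not pass (0.103). The median of this list was 0.00802, and 0.02 with the block.

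Inside the cell, 13 tested partners of the LAR-type receptors had 0 called higher and 1 lower with the block. Ppfibp2, a liprin-beta gene, fell to 8.37 ± 1.53 CPM under EPZ5676, against 17.6 ± 3.82 CPM under ethanol (SD, n = 3), with a blocked log2 fold change of -1.06 ± 0.11 (SE). Ppfibp1, its paralog, was at 135 ± 3.10 CPM under EPZ5676 against 162 ± 4.86 CPM under ethanol, with groups that did not overlap, and did not pass (blocked edgeR adjusted p, 0.0573). The median over the 13 genes was 0.08.

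Of 10 tested extracellular partners of Ptprg and Ptprz1, the contactin gene Cntn3 was the 1 called higher with the block, and 0 were called lower. Cntn3 rose to 9.88 ± 0.599 CPM under EPZ5676, against 5.94 ± 0.301 CPM under ethanol (SD, n = 3), a blocked log2 fold change of 0.73 ± 0.12 (SE; edgeR adjusted p, 0.0485). Cntn1, a further contactin, was at 1.31 ± 0.285 CPM under EPZ5676 against 0.801 ± 0.100 CPM under ethanol and did not pass (0.218), and Nfasc had a blocked log2 fold change of 0.30 ± 0.08 (0.124). The median over the 10 genes was 0.06, and 5 were positive and 5 negative.

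Genes of the cell junctions at which the MAM-domain receptors act (cadherins, catenins, Pkp3, Afdn and Pard3) had 0 of 11 called in either fit and a median of -0.05. Cdh3 and Cdh1, both cadherins, were at 13.2 ± 1.26 and 12.8 ± 2.41 CPM with EPZ5676, against 19.2 ± 2.91 and 18.2 ± 1.41 CPM with ethanol (SD, n = 3), with groups that did not overlap. Neither passed, at adjusted p of 0.107 and 0.138 in the blocked edgeR fit. Of 19 receptor tyrosine kinases and Thbs1, a ligand of Ptprj, 0 were called higher and 1 lower with the block. Their median was -0.21 without the block and -0.14 with it, and 15 of 20 were negative without it, as were 7683 of all 14855 genes. Ephb4, an ephrin receptor, fell to 38.04 ± 6.75 CPM under EPZ5676, against 58.2 ± 5.11 CPM under ethanol, at a blocked log2 fold change of -0.62 ± 0.09 (SE, adjusted p of 0.0428). Epha2, Kit and Erbb3 had blocked log2 fold changes of -0.39 ± 0.07, -0.37 ± 0.07 and -0.28 ± 0.06 and did not pass (edgeR adjusted p of 0.0504, 0.0586 and 0.0852). Epha2 was at 137, 247 and 86.3 CPM in EPZ5676 replicates 1, 2 and 3, against 186, 287 and 124 CPM in ethanol replicates 1, 2 and 3, so it was lower in every pair while the groups overlapped.

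Genes of the stereocilia of inner ear hair cells, not all of them partners of Ptprq, had 0 of 9 called in either fit and a median of -0.08. Myo6, the myosin that holds Ptprq at the stereocilium base, was at 28.1 ± 1.10 CPM under EPZ5676 against 34.5 ± 2.34 CPM under ethanol (SD, n = 3), opposite in direction to Ptprq, not past the threshold (blocked edgeR adjusted p, 0.141). Fibroblast markers had 0 of 25 called in either fit and a median of -0.23. Without the block, 9 of the 10 members had a positive log2 fold change and Ptprj a negative one. A part of the fibroblast signal in these differences was not tested.

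**Figure D4:**
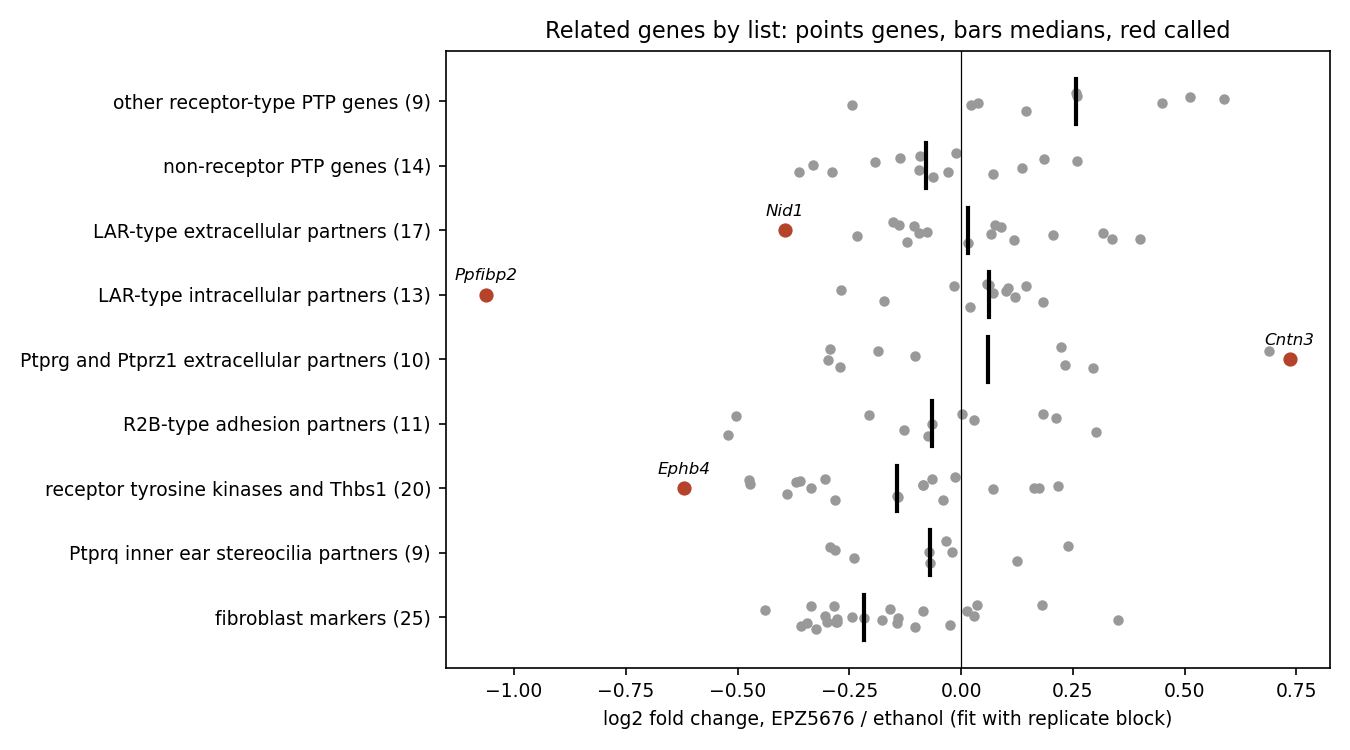
Log2 fold change (EPZ5676 over ethanol, fit with the replicate block) of the tested genes of 9 lists, with 1 point per gene, a black bar at each list's median, the number tested in brackets, and red points for genes at an adjusted p under 0.05 in edgeR's test. Cntn3 at 0.73 is the 1 red point right of 0, and Nid1, Ppfibp2 and Ephb4 lie left of it.

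The neighbours of Ptprd and Ptprq on their chromosomes were set beside them, as the nearest tested gene on each side in RefSeq's GRCm38.p6 table. Next to Ptprd lie Kdm4c, a histone demethylase gene, at 17.4 CPM under EPZ5676 against 18.7 CPM under ethanol, and Lurap1l at 0.520 and 0.476 CPM in the same order. Next to Ptprq lie Acss3 at 2.50 CPM under EPZ5676 against 2.11 CPM under ethanol, and the myosin phosphatase subunit gene Ppp1r12a at 156 CPM under EPZ5676 against 164 CPM under ethanol. Their log2 fold changes ran from -0.10 to 0.25, and 0 of the 4 passed in either fit of edgeR's test, with adjusted p between 0.533 and 0.941 with the block.

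The genes most like Ptprd and Ptprq across the 6 libraries were ranked by Pearson's r of log2 CPM among the 10685 others averaging 5 CPM or more. Those nearest to Ptprd were Champ1, Taf4, Psmd11, Gpr137 and Elmo1, with r of 0.996 to 0.984, and those nearest to Ptprq were Dnlz, Heatr6, Gpr137, Pou4f1 and Piezo2, with r of 0.992 to 0.987. These libraries share treatment and replicate number, so the values are descriptions of 6 points. Ptprd and Ptprq followed each other at r = 0.966. Both were chosen as higher with EPZ5676 in these same libraries, so a high r between them follows from the choice. Ptprk followed Ptprd at 0.943, Ptprz1 at 0.685, Ptprf at 0.555, Ptpru at 0.452 and Ptprg at 0.272. The r with Ptprd was 0.159 for Ptprs, 0.158 for Ptprm and -0.228 for Ptprj. Taf4, a TFIID subunit gene, was at 61.8 ± 2.41 CPM under EPZ5676 against 46.8 ± 3.72 CPM under ethanol (SD, n = 3). Pou4f1, a transcription factor gene, was at 21.8 ± 1.58 CPM under EPZ5676 against 12.8 ± 0.890 CPM under ethanol. For genes ranked by likeness to Ptprd and Ptprq, a difference in the same direction follows from the choice. Its size varied, with unblocked log2 fold changes of 0.15 for Champ1 and 0.17 for Heatr6 against 0.40 for Taf4 and 0.77 for Pou4f1.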

How the data were processed

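RNA of 3 EPZ5676 and 3 ethanol cultures was measured, and the authors deposited raw gene counts, 1 row per symbol. The tools named are Bowtie, STAR, featureCounts and edgeR, with the mm9 build, per the submitters' processing notes; for versions, annotation, strandedness and multi-mapped reads, nothing is stated in those notes. Because the reference tables are on GRCm38, no coordinates are given, and transcript lengths and sequences come from GENCODE M21.

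From the counts as deposited, 14855 genes passed filterByExpr, were scaled by TMM and tested with edgeR 4.0.16 in R 4.3.3 (glmQLFit, 2-sided, Benjamini-Hochberg over all genes, threshold 0.05), with DESeq2 1.42.0 and limma 3.58.1 as alternatives. The test was checked on simulated counts. Members, gene lists, named genes (all members, the other tested receptor-type genes, up to 4 per list by the blocked p, the 5 genes most like Ptprd and Ptprq, and their neighbours) and tests were chosen with earlier results of these data known.

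The labels number replicates 1 to 3 in each group. Deviations from the group mean correlated at 0.411, 0.614 and 0.335 for same-numbered libraries, all above 0.1, so the numbers were treated as pairs and values with the replicate block stand beside those without it. Crossing replicates 1 and 3 between the groups also gave values over that bound (0.278 and 0.149). No pair of libraries agreed within sampling noise (chi-square per degree of freedom of at least 3.64). The table of repeat families was not used.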

Additional observations from a re-analysis of the deposited data

How the results depend on the processing

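With the replicate block, edgeR called 97 genes and 2 of the 10 members, against 0 and 0 without it; without replicate 1, 2 or 3 of both groups the blocked counts were 0, 795 and 761 genes and 0, 3 and 4 members, with 1 residual degree of freedom and the cause not tested. DESeq2 called 50 genes and 2 members without the block and 293 genes and 3 members with it. Without both replicate 2 libraries edgeR called 10 genes and 0 members. limma-voom, other scalings, other filters and the loss of any single library gave 0 calls of either kind. The order of levels per length was the same with exon-union lengths.

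Among members, the directions of Ptprs and Ptprm reversed. Ptprs was -0.0161 with the replicate block in edgeR and -0.0166 in DESeq2, -0.00704 with library totals and -0.0902 without both replicate 2 libraries; without replicate pair 1, 2 or 3 it was -0.0907, -0.10 and 0.14, and with single libraries left out from -0.16 to 0.15. Ptprm ran from -0.11 to 0.14 with single libraries left out and from -0.17 to 0.22 with pairs left out. Ptprd ran from 0.52 to 0.69, Ptprq from 0.73 to 0.91, Ptprk from 0.40 to 0.75, Ptprz1 from 0.44 (without EPZ5676 replicate 1) to 0.88 and Ptprj from -0.36 to -0.0457 (without ethanol replicate 2) with single libraries left out. Ptprc ran from 0.30 (without ethanol replicate 3) to 1.03 (without ethanol replicate 2), and Ptprn from 0.0947 (without ethanol replicate 1) to 1.04 (without ethanol replicate 2). Among other genes, Ptprb (-0.14 to 0.15 with single libraries left out, -0.0483 without both replicate 2 libraries), Ptpre (-0.25 to 0.65), Ptprv (-0.40 to 0.0493) and Epha2 (-0.83 to 0.0202, the second without ethanol replicate 2) reversed, and with pairs left out Ptprb and Ptpre ran from -0.0462 to 0.11 and from -0.30 to 0.40.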
